A study of Mus musculus with 18 samples.

Results

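This section describes 29 genes of cholesterol and fatty acid synthesis among the 54752 genes of the count table. They were taken by name from a list of sterol and fatty acid synthesis genes and their regulators and all 29 were found as protein-coding genes of the mouse annotation. They were read in 3 branches: 17 enzymes of sterol synthesis, 4 genes of regulation and sterol transport, and 8 enzymes of fatty acid synthesis and desaturation. The question put by the study was what changes in mouse ovarian cancer cells and tumors when B7-H3, the immune checkpoint protein encoded by Cd276, is removed.

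RNA sequencing covered 18 libraries in 6 groups of 3. Cultured HM-1 cells (strain B6C3F1, grown in MEM alpha) and cultured ID8 cells (strain C57BL6, grown in RPMI 1640) were each sequenced as control and as Cd276KO, a genotype given for the whole line with no clone named. HM-1 cells of both genotypes were also grown as intradermal tumors in B6C3F1 mice and collected at day 10, and these samples are whole tumors with the host cells in them. The labels name no further agent for any group. The labels call the 3 samples of a group biological replicates but name no separate clone, culture or mouse, and the spread that the p-values measure may therefore be partly technical. Both culture media held foetal bovine serum. Line, strain and medium change together between HM-1 and ID8 and cannot be told apart.

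Cells build cholesterol from acetyl-CoA through mevalonate, isoprenoids, squalene and lanosterol, in a chain of enzymes most of which are switched on together by the transcription factor SREBP-2, the product of Srebf2. The related factor SREBP-1, from Srebf1, acts mainly on the enzymes that make fatty acids and put double bonds into them. When sterols are plentiful, the membrane protein INSIG1 holds the precursors of both factors in the endoplasmic reticulum, and Insig1 is itself a target of the pathway. Tumor cells commonly make both kinds of lipid for new membranes.

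Library totals ran from 17349082 to 30959773 counts. One library of cultured HM-1 controls, number 1, stood apart: a chi-square statistic between 2 libraries of this group, divided by the number of genes, was 64.9 and 63.9 for the pairs with library 1 and 1.57 for libraries 2 and 3. Among the control tumors the pairs with tumor 3 gave 134 and 81.3, against 41.1 for tumors 1 and 2. Calls of members that rest on these libraries are given below with and without them. Cd276, read over the whole gene, was 74.2, 93.5 and 91.5 CPM (counts per 1000000 counts of the library) in HM-1 control cultures against 47.2, 47.7 and 44.8 in those labelled Cd276KO. In ID8 it was 21.1, 21.1 and 20.6 against 18.3, 18.8 and 21.0 CPM (log2 fold change -0.04, adjusted p = 0.692 by edgeR with Benjamini-Hochberg adjustment), and these counts did not separate the ID8 libraries by label. In tumors it was 142, 107 and 116 against 73.2, 97.2 and 89.5 CPM (log2 fold change -0.45, adjusted p = 0.105). The deleted stretch is not named, so counts over the gene need not check the genotype. As for the labelled cell type, the keratins Krt8 and Krt18 were high in every group, whereas Epcam had no count in the 6 HM-1 cultures. The epithelial cadherin gene Cdh1 had too few counts in the HM-1 cultures to be tested by label. Wt1, an ovarian surface and mesothelial gene, reached 550.0 to 586 CPM in ID8 controls and at most 0.0567 CPM in HM-1 controls.

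The upstream sequences of 4 members are shown first because these genes carry the main contrasts described below: Hmgcs1 and Nsdhl fell most in ID8 cultures labelled Cd276KO, Insig1 moved in opposite directions in the 2 lines, and Hsd17b7 was the sterol enzyme that did not pass the test between the lines. They come from the RefSeq promoter table on GRCm38.p6, run 5′ to 3′ along the strand of the gene and stop at the RefSeq start or before it. Capitals mark matches to 2 motifs searched on both strands, TCACNCCAC, a form of the sterol regulatory element bound by SREBP, and CCAAT, the box bound by NF-Y, written ATTGG where it lies on the other strand.
Hmgcs1 (chr13:119690101-119690350, plus strand): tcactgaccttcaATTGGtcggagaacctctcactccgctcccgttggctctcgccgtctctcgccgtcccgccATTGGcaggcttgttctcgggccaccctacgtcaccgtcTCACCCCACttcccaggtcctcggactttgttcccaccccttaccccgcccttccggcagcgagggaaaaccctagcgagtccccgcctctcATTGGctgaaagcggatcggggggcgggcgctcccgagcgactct
Nsdhl (chrX:72918271-72918520, plus strand): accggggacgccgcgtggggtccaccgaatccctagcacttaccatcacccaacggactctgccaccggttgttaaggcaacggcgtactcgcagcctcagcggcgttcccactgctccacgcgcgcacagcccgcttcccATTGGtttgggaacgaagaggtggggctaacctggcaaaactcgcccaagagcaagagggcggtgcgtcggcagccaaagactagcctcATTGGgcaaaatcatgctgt
Insig1 (chr5:28071162-28071362, plus strand): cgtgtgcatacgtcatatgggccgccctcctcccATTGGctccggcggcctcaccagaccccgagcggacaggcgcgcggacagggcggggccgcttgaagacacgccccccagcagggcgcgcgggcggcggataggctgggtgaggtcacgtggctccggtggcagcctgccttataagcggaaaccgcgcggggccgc
Hsd17b7 (chr1:169969242-169969455, minus strand): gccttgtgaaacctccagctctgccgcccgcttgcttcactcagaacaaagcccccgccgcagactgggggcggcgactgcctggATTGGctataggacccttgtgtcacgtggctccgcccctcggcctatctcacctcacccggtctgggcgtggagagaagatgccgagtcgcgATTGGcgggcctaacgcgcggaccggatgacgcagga

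Of the 29 members, 22 had an entry in that table, with 27 windows that run from 250 bases before to 50 bases after a start. TCACNCCAC was found in 1 of these windows, that of Hmgcs1, 137 bases before the start, and in 408 of all 32851 windows (1.24%). CCAAT was found in 19 of the 27 member windows, belonging to 18 of the 22 members, and in 12289 of all windows (37.4%). In the printed stretches the 2 motifs do not overlap, and the Hmgcs1 stretch holds 3 CCAAT matches, at 237, 176 and 45 bases before the start. A match is a description of the letters, and the absence of one says only that these letters are not in the window.

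Per length of exon, the sterol enzymes differed widely in level. In HM-1 control cultures the mean ran from 3.64 CPM per kilobase for Dhcr7, the last enzyme before cholesterol, to 29.9 for Ebp, a sterol isomerase. In ID8 control cultures it ran from 4.44 for Hsd17b7, a 3-keto-sterol reductase, to 92.2 for Hmgcs1, the HMG-CoA synthase that opens the mevalonate pathway. Scd2, one of the stearoyl-CoA desaturases, was the highest member in both lines, at 136 CPM per kilobase in HM-1 controls and 752 in ID8 controls. Summed over the 17 sterol enzymes, libraries held 760.2 to 779 CPM in HM-1 controls and 2100 to 2122 CPM in ID8 controls.

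**Figure D1:**
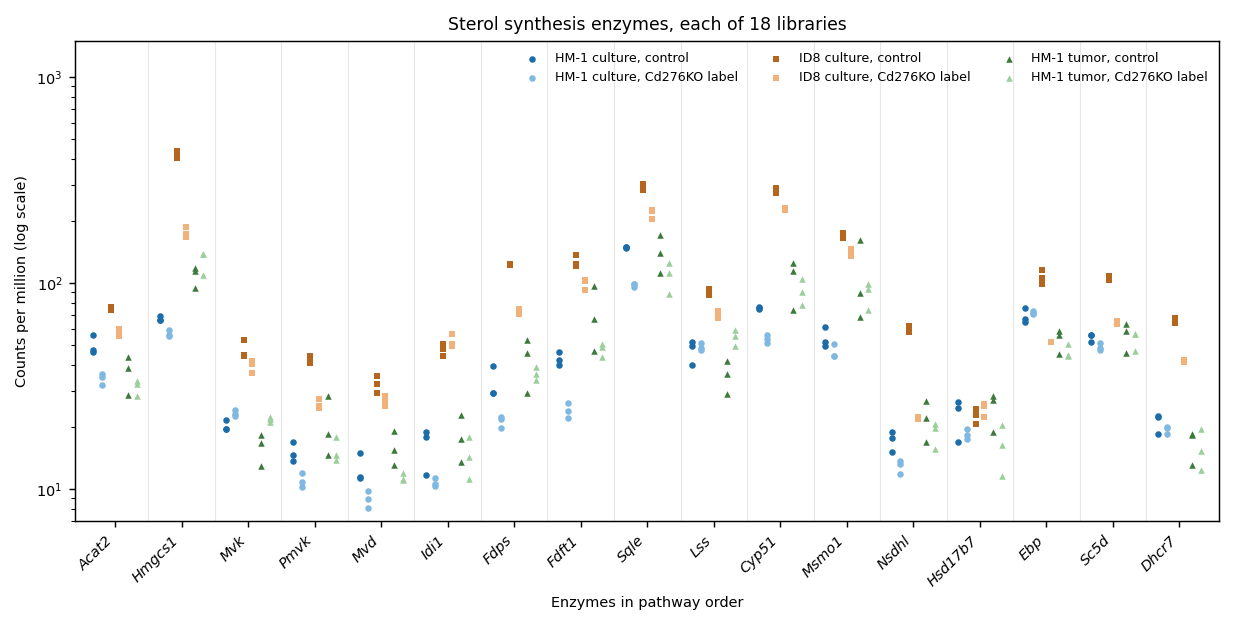
Level of each of the 17 sterol enzymes in all 18 libraries, in CPM on a log axis, with a point for each library coloured by group. The ID8 control points lie highest for most enzymes, as for Hmgcs1 at 405 to 436 CPM against 65.8 to 69.2 CPM in HM-1 controls, and Hsd17b7 is the enzyme whose control points overlap between the lines.

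ID8 cultures labelled Cd276KO held less RNA of most sterol enzymes than ID8 controls. All 17 enzymes passed the test (edgeR quasi-likelihood, Benjamini-Hochberg adjusted p under 0.05 over 12932 genes), 15 of them lower and 2 higher, where 60.7% of all genes tested passed, 31.3% lower and 29.4% higher. Their median log2 fold change was -0.30, against -0.01 over all genes tested. The summed level of the branch was 2111 ± 10.99 CPM in controls and 1411 ± 15.2 CPM in the libraries labelled Cd276KO (SD, n = 3 each).

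The lowest relative to controls was Nsdhl, which removes the C4 methyl groups of sterol intermediates together with Msmo1 and Hsd17b7 (ENSMUSG00000031349.4, chrX:72918557-72958514 on GRCm38). It was 57.7, 61.5 and 61.5 CPM in the 3 controls and 21.8, 22.3 and 21.99 CPM in those labelled Cd276KO. The groups stood well apart, and Nsdhl was 63.4% lower (log2 fold change -1.37, SE 0.07, adjusted p = 3.39e-14).

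Hmgcs1 (ENSMUSG00000093930.2, chr13:119690379-119708260), whose upstream sequence holds the sterol element match above, was 430.1, 436 and 405 CPM in controls against 173, 168 and 187 CPM. No library of one group came near the other, and the log2 fold change was -1.19 (SE 0.06, adjusted p = 4e-14). Ebp was 105, 98.6 and 115 CPM in controls. In the 3 libraries labelled Cd276KO it was 51.9, 51.9 and 51.6 CPM, a level 51.3% lower with almost no spread (log2 fold change -0.96, SE 0.06, adjusted p = 1.12e-11). Fdps, the farnesyl diphosphate synthase that feeds sterols and isoprenoids, fell from 123, 124 and 122 CPM to 70.9, 70.8 and 74.4 CPM (log2 fold change -0.70, SE 0.06, adjusted p = 2.3e-10). Reads on 1124 bases of Fdps exon that are shared with Gm43738 on the same strand cannot be told apart, and Hmgcs1 shares 557 bases of exon with the opposite-strand gene Gm48342.

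The other 11 enzymes that fell changed by -0.18 to -0.66 on the log2 scale. They include Mvk and Pmvk, the kinases of the mevalonate steps, squalene synthase and squalene epoxidase, Fdft1 and Sqle, and the late enzymes Sc5d and Dhcr7. The isomerase Idi1 and the reductase Hsd17b7 were called higher, by 0.21 (SE 0.07, adjusted p = 0.0106) and 0.19 (SE 0.08, adjusted p = 0.0422). Their CPM ranges overlapped between the groups, 44.2 to 50.4 against 49.5 to 56.3 CPM for Idi1 and 20.8 to 24.4 against 22.5 to 25.8 CPM for Hsd17b7. Both of these calls were lost when library totals alone set the scale (adjusted p = 0.104 and 0.230), while no called sterol enzyme changed sign under any alternative.

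Insig1, which restrains SREBP processing, went the other way from 15 of the 17 enzymes in ID8 (ENSMUSG00000045294.11, chr5:28071363-28078662). It was 103, 108 and 104 CPM in controls and 126, 127 and 122 CPM in libraries labelled Cd276KO, with no overlap. The log2 fold change was 0.33 (SE 0.05, adjusted p = 1.45e-05). Stard4, a carrier that moves cholesterol between membranes, was 102, 108 and 100.2 CPM in controls and 76.1, 74.0 and 74.1 CPM in those labelled Cd276KO (log2 fold change -0.39, SE 0.06, adjusted p = 2.55e-06). Srebf2 was lower by a smaller step, 428 ± 22.8 against 352 ± 10.97 CPM (log2 fold change -0.21, SE 0.06, adjusted p = 0.0042). Srebf1 was 188 ± 15.8 against 167 ± 10.2 CPM with overlapping ranges and did not pass the test (adjusted p = 0.205).

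**Figure D2:**
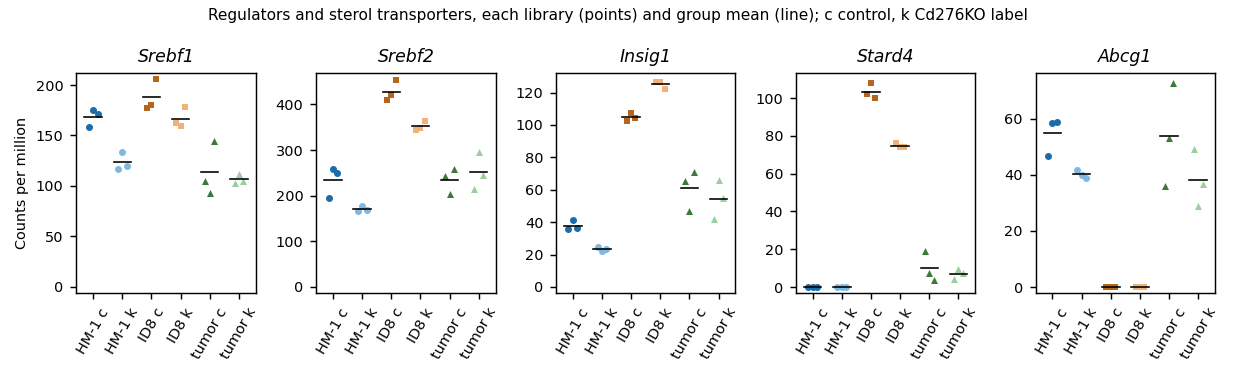
Level in CPM of Srebf1, Srebf2, Insig1, Stard4 and the cholesterol exporter Abcg1 in the 6 groups, with a point for each library and a line for the mean of 3. Insig1 is lower in HM-1 cultures labelled Cd276KO and higher in ID8 cultures labelled Cd276KO, and Stard4 is at or near 0 in the HM-1 cultures.

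In the fatty acid branch, 4 of 8 enzymes passed the test in ID8 and all 4 were lower, where 60.7% of all genes tested passed, 31.3% lower. Both stearoyl-CoA desaturases, which make monounsaturated fatty acids, had the largest changes of the branch. Scd1 (chr19:44394455-44407879) was 424, 437 and 435 CPM in controls and 259.8, 264 and 255 CPM in libraries labelled Cd276KO (log2 fold change -0.66, SE 0.05, adjusted p = 4.49e-10). Scd2 (chr19:44293674-44306864) was 3938, 4353 and 4031 CPM against 2505, 2556 and 2728 CPM (log2 fold change -0.59, SE 0.06, adjusted p = 2.27e-08). The groups of both genes were apart. They are close copies of each other, and how reads that fit both were counted is not given in the sources used here.

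The fatty acid elongase Elovl6 was 88.8 ± 3.88 CPM in controls and 68.8 ± 4.39 CPM in those labelled Cd276KO (log2 fold change -0.29, SE 0.06, adjusted p = 0.000244). Acaca, the acetyl-CoA carboxylase that commits carbon to fatty acids, was 86.0 ± 2.67 against 72.3 ± 7.62 CPM (log2 fold change -0.17, SE 0.07, adjusted p = 0.0304). The remaining 4 enzymes did not pass the test. ATP-citrate lyase, Acly, lay nearest to the threshold at -0.13 (adjusted p = 0.0504), and the delta-5 and delta-6 desaturases Fads1 and Fads2 were at 0.06 and 0.01. The median over the 8 enzymes was -0.15.

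HM-1 cultures labelled Cd276KO also held less RNA of some sterol enzymes. In these cultures 7 of 17 enzymes passed the test, and all 7 were lower, against 27.7% of all 12457 genes tested, 16.1% lower and 11.6% higher. The median log2 fold change of the branch was -0.37 (all genes -0.01). The summed level was 767 ± 10.0 CPM in controls and 608 ± 10.6 CPM in those labelled Cd276KO.

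Fdft1, the squalene synthase at the branch point to sterols (chr14:63145150-63179578), was 46.4, 42.1 and 40.0 CPM in HM-1 controls and 22.01, 26.2 and 23.9 CPM in those labelled Cd276KO. It was 43.9% lower, with no overlap (log2 fold change -0.79, SE 0.11, adjusted p = 0.00253). An opposite-strand gene, Ctsb, shares 774 bases of exon with Fdft1, as Akap9 shares 166 with Cyp51, and whether the counting used strand is not given, so reads there cannot be told apart. Sqle was 149, 148 and 149.9 CPM against 98.5, 95.8 and 98.6 CPM, the tightest pair of groups in the branch (log2 fold change -0.57, SE 0.07, adjusted p = 0.00137). Fdps was 39.6, 29.3 and 29.3 CPM against 21.8, 22.2 and 19.8 CPM (log2 fold change -0.58, SE 0.15, adjusted p = 0.0263). Acat2, the thiolase that supplies acetoacetyl-CoA, was 56.2, 46.3 and 47.4 CPM against 36.2, 32.0 and 34.9 CPM (log2 fold change -0.50, SE 0.11, adjusted p = 0.0165).

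Cyp51, Pmvk and Nsdhl were the other 3 that fell, by 0.46, 0.42 and 0.37 on the log2 scale. Hmgcs1, 65.8 to 69.2 CPM in controls and 55.3 to 59.3 CPM in those labelled Cd276KO, did not pass (log2 fold change -0.20, adjusted p = 0.079). Ebp, at 0.10, and the lanosterol synthase Lss, also at 0.10, overlapped between groups. All 3 regulators that could be tested were lower. Insig1 was 35.8, 41.7 and 36.3 CPM against 24.5, 22.3 and 23.5 CPM (log2 fold change -0.65, SE 0.09, adjusted p = 0.0028), Srebf2 changed by -0.41 (SE 0.11, adjusted p = 0.0349) and Srebf1 by -0.40 (SE 0.08, adjusted p = 0.0131). The Srebf2 call was lost with the replicate block and without any 1 library other than control 1, and the Srebf1 call without library 1 or 3 labelled Cd276KO. Stard4 had no count in the 3 control cultures and 1 count in those labelled Cd276KO, and the filter on low counts removed it.

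No fatty acid enzyme passed the edgeR test in HM-1 cultures. At an unadjusted p under 0.05 there was 1, and the share of all genes under that p was not counted. DESeq2 called 0 (32.3% of all genes) and limma voom with quality weights called 7 (60.8% of all genes). Control library 1 widened the spread of the controls here: Acaca was 45.4, 93.2 and 90.03 CPM in controls and 106, 114 and 111 CPM in those labelled Cd276KO (log2 fold change 0.58, adjusted p = 0.128). Fasn, the fatty acid synthase, was 271.5, 514 and 483 CPM against 440.1, 553 and 484 CPM (log2 fold change 0.26, adjusted p = 0.425). In both genes library 1 was the lowest of all 6. Fasn was nevertheless called in 0 of 13 alternatives, the fit without library 1 among them.

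Without control library 1 the same fit called 59.1% of all 12685 genes tested in place of 27.7%, and with them 15 of 17 sterol enzymes, 13 lower and 2 higher, with Idi1 at -0.72, Fdft1 at -0.72 and Sqle at -0.56 among the lower and Mvk at 0.31 and Ebp at 0.18 the higher. It then called 7 of 8 fatty acid enzymes, beside that share of all genes. Acaca (0.32) and Elovl6 (0.12) were higher, and Scd2 (-0.43), Acly (-0.40), Fads2 (-0.17), Fads1 (-0.13) and Scd1 (-0.11) lower. With 2 controls left, these calls rest on libraries 2 and 3, the pair with the small chi-square statistic. Leaving out library 1, 2 or 3 labelled Cd276KO left 3 sterol calls each time, in fits that called 13.8%, 14.3% and 13.5% of all genes. Fdft1, Sqle, Cyp51 and Insig1 kept their calls in all 13 alternatives.

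**Figure D3:**
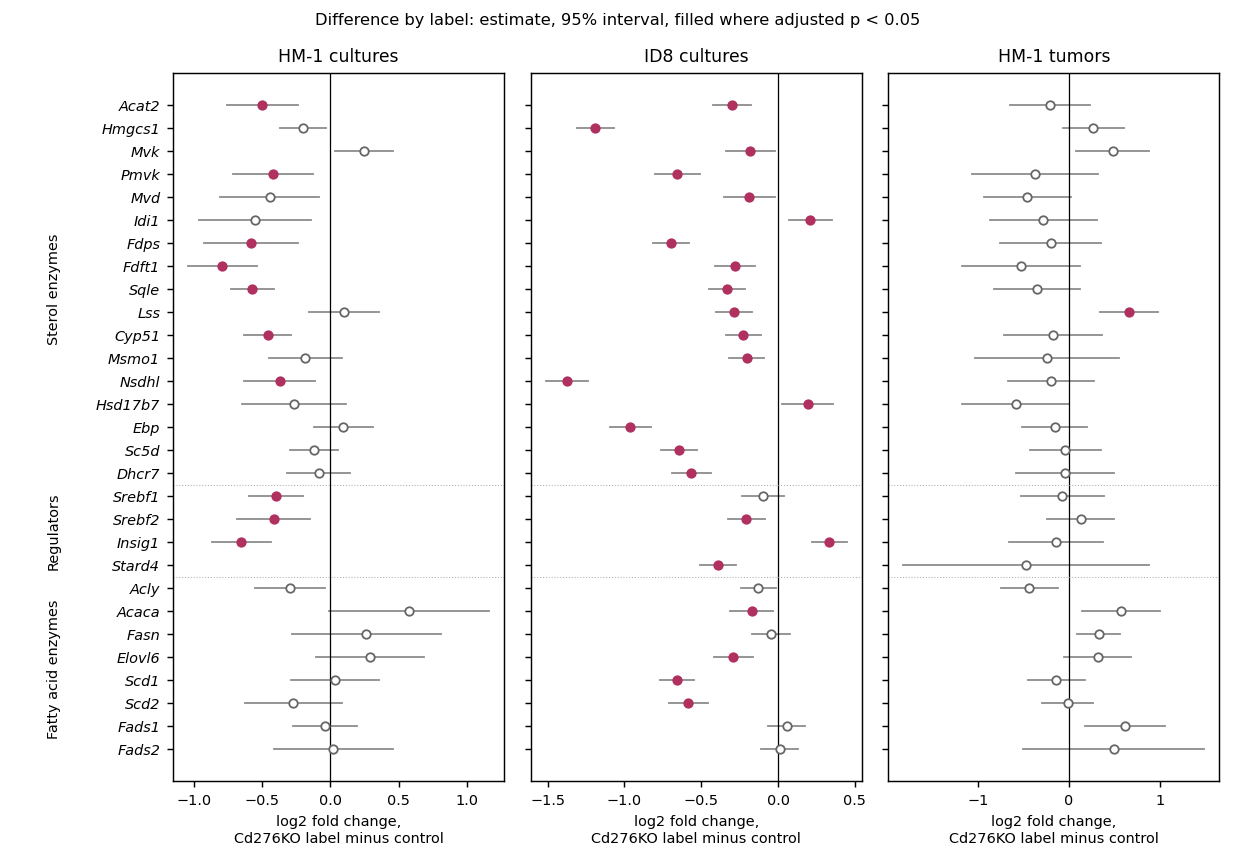
Log2 fold change between libraries labelled Cd276KO and controls for the members in HM-1 cultures, ID8 cultures and HM-1 tumors, with 95% confidence intervals and filled points where the adjusted p was under 0.05. Most sterol enzymes lie left of 0 in both cultures, down to -1.37 for Nsdhl in ID8, while in tumors Lss alone is called, at 0.66.

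The label effect differed between the lines for 15 of the 29 members by a test of the difference itself, a contrast over the 12 culture libraries (40.4% of 14208 genes tested, 19.8% higher and 20.7% lower in ID8 than in HM-1). In the sterol branch 11 of 17 differed. The ID8 effect was the more negative for Ebp by -1.07 (SE 0.12, adjusted p = 1.39e-05), Nsdhl by -1.01 (SE 0.12, adjusted p = 3.82e-05), Hmgcs1 by -0.9998 (SE 0.09, adjusted p = 2.05e-06) and Sc5d by -0.53 (SE 0.09, adjusted p = 0.00032). It was the more positive for Idi1 by 0.75 (SE 0.19, adjusted p = 0.00604) and Fdft1 by 0.50 (SE 0.13, adjusted p = 0.00795).

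Insig1 gave a difference of 0.98 (SE 0.10, adjusted p = 8.69e-06), as it was lower in HM-1 and higher in ID8 libraries labelled Cd276KO. Acaca (-0.76, SE 0.27, adjusted p = 0.0388), Scd1 (-0.70, SE 0.15, adjusted p = 0.00229) and Elovl6 (-0.59, SE 0.18, adjusted p = 0.0206) differed in the fatty acid branch, each with the lower value in ID8. Without HM-1 control library 1 the contrast called 49% of all genes, 14 sterol enzymes and 5 fatty acid enzymes, with Ebp at -1.14, Acaca at -0.49 and Scd1 at -0.55, and it added the regulators Srebf1 (0.33) and Srebf2 (0.31).

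Bulk tumors by label gave 1 call among the 29 members, against 5.38% of 15345 genes tested, 2.2% higher and 3.18% lower. In such samples fewer cells of a type and less RNA per cell cannot be told apart. Lss, which closes the sterol ring (chr10:76531588-76557138), was 41.9, 36.1 and 28.9 CPM in control tumors and 49.5, 59.3 and 55.5 CPM in tumors labelled Cd276KO. The ranges were apart and the log2 fold change was 0.66 (SE 0.14, adjusted p = 0.0441). Its exons share 381 bases with the opposite-strand gene 4930483K19Rik. The call was lost without control tumor 1, without control tumor 2 and without any 1 of the tumors labelled Cd276KO. It was also lost with library totals alone (0.62, adjusted p = 0.073) and with the replicate block, which called 0 genes of the whole table. The log2 fold change stayed between 0.57 and 0.77 in all 13 alternatives. Without a tumor labelled Cd276KO, 1, 0 and 0 genes of the whole table were called. Without control tumor 3 Lss was at 0.57 (adjusted p = 0.0244).

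The other 16 sterol enzymes ran from -0.59 for Hsd17b7 to 0.48 for Mvk, and the branch median was -0.20 (all genes -0.03). Control tumors varied more than tumors labelled Cd276KO in several of them. Msmo1, the C4-methylsterol oxidase, was 89.4, 68.0 and 161 CPM in control tumors against 74.3, 98.8 and 93.7 CPM, and Fdft1 was 66.7, 46.7 and 96.6 against 43.8, 50.5 and 49.0 CPM. In both genes tumor 3 was the highest and tumor 2 the lowest control. The summed branch was 889 ± 193 CPM in control tumors and 801 ± 88.4 CPM in those labelled Cd276KO, with overlapping ranges. None of the 4 regulators passed the edgeR test, none had an unadjusted p under 0.05, and DESeq2 and limma voom called 0.

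No fatty acid enzyme passed the edgeR test in tumors, although 4 had an unadjusted p under 0.05, DESeq2 called 4 and limma voom called 3, where these tools called 16.1% and 20.8% of all genes. The share of all genes under that unadjusted p was not counted. The CPM ranges of these 4 were apart, but the genes were picked by that p, so the gap is no further evidence. Fads1 was 146, 115 and 83.6 CPM in control tumors and 155, 192 and 165 CPM in those labelled Cd276KO (log2 fold change 0.62, SE 0.18, adjusted p = 0.0991). Acaca was 37.0, 31.7 and 23.8 against 38.3, 54.1 and 41.7 CPM (log2 fold change 0.58, SE 0.18, adjusted p = 0.109). In both genes the 3 tumors labelled Cd276KO lay above the controls, without an edgeR call. Fasn was 207.5, 220.0 and 200.4 against 233, 281 and 254 CPM (log2 fold change 0.33, SE 0.10, adjusted p = 0.1). Acly lay the other way, 343.5 to 426 against 265 to 286 CPM (log2 fold change -0.43, SE 0.13, adjusted p = 0.105).

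Markers of host cells differed between these tumors. Summed over 8 macrophage markers, control tumors held 1933, 1397 and 1143 CPM and tumors labelled Cd276KO 519.8, 1030.1 and 838 CPM, and 1 of the 8, Cd68, was called lower. Over 4 endothelial markers the sums were 215, 142 and 61.9 against 121, 175 and 143 CPM. Over 5 fibroblast markers the sums were 5962, 1794 and 274 CPM against 816, 1845 and 1409 CPM. Over 7 skeletal muscle markers they were 128, 1.88 and 2.35 against 94.8, 725 and 692 CPM, and over 5 keratinocyte markers control tumor 3 held 202 CPM where all other tumors held 6.94 to 7.67. Over 7 adipocyte markers the sums were 21.9, 21.9 and 38.1 against 19.5, 38.2 and 59.8 CPM, with Lep at 0 in the control tumors and Adipoq at most 3.63 CPM. Over 7 sebaceous gland markers the sums were 5.30, 5.06 and 11.3 against 5.68, 5.75 and 6.57 CPM. The macrophage, fibroblast and endothelial sums were all highest in control tumor 1 and lowest in control tumor 3. The sum of the 17 sterol enzymes had another order in the control tumors, 918, 683 and 1066 CPM. Some members had the order of the macrophage sums, among them Fads2 (31.6, 15.3 and 9.28 CPM) and Stard4 (19.2, 7.46 and 3.91 CPM). Others, as Msmo1 and Fdft1, had another order. With 3 tumors few orders are possible, so a shared order says little, and the share of all genes with it was not counted. The part of these cells in the tumor values was not tested.

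**Figure D4:**
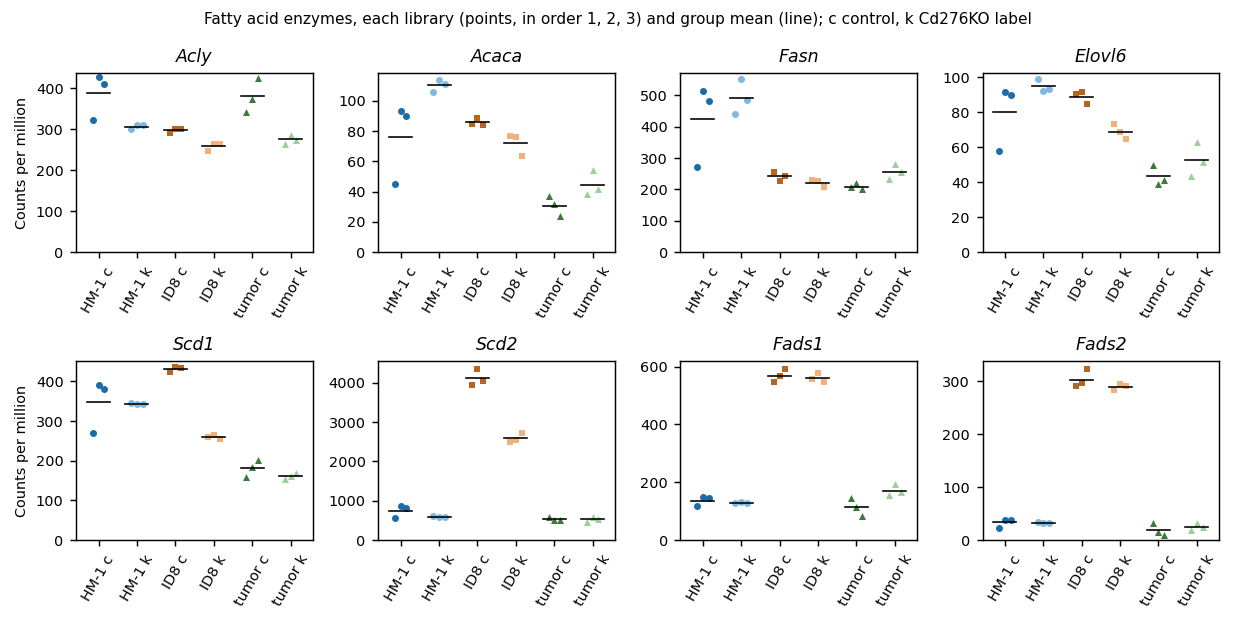
Level in CPM of the 8 fatty acid enzymes in the 6 groups, with a panel for each gene, a point for each library and a line for the mean of 3. Fasn, Acaca and Scd1 are lower in both tumor groups than in HM-1 cultures of the same label, and HM-1 control library 1 is the low point of its group for all 8.

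The test of whether the label effect differed between HM-1 tumors and HM-1 cultures called none of the 29 members with edgeR, against 2.84% of 15623 genes tested, 1.72% higher and 1.12% lower. At an unadjusted p under 0.05 there were 2 sterol enzymes, 1 regulator and 1 fatty acid enzyme. The share of all genes under that unadjusted p was not counted, so these numbers cannot be set against it. DESeq2 called 0 in each branch (6.1% of all genes), and limma voom called 10, 3 and 3 (19.7% of all genes). Intervals were wide: for Lss the difference was 0.55 with a 95% confidence interval of 0.10 to 1.003.

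Tumors of control HM-1 cells were compared with control cultures to see what changed with growth in the mouse, a comparison that shares its libraries with those by label. Fatty acid enzymes were lower in the tumors: 5 of 8 passed the test, all 5 lower, against 41.8% of 14609 genes tested, 16.6% lower and 25.3% higher. Their median log2 fold change was -0.99 (all genes 0.05). The tumors also brought in host RNA, with macrophage sums of 1143 to 1933 CPM against 21.3 to 26.2 CPM in the cultures, and its part in these differences was not tested. Acaca, 45.4, 93.2 and 90.03 CPM in cultures and 37.0, 31.7 and 23.8 CPM in tumors, changed most (log2 fold change -1.44, SE 0.28, adjusted p = 0.0065). Fasn went from 271.5, 514 and 483 CPM to 207.5, 220.0 and 200.4 CPM (log2 fold change -1.15, SE 0.22, adjusted p = 0.00612). No tumor library of either gene reached the lowest culture library.

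Scd1 went from 270.1, 390.4 and 381 CPM to 159, 185 and 202 CPM (log2 fold change -1.06, SE 0.17, adjusted p = 0.00326). Elovl6 went from 58.1, 91.7 and 89.99 to 49.98, 39.0 and 41.0 CPM (log2 fold change -1.02, SE 0.19, adjusted p = 0.00566). Both genes were lower in all 3 tumors than in any culture. Without culture library 1 (37.2% of all genes called) the same 5 enzymes were called, with Acaca at -1.70 and Fasn at -1.38, and without tumor 3 (46.5% called) again the same 5, with Acaca at -1.31 and Fasn at -1.15. Scd2 was the fifth gene, at -0.58 with overlapping ranges, and Acly, Fads1 and Fads2 did not pass.

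The sterol branch gave 3 calls of 17 in control tumors against culture, where 41.8% of all genes tested passed. Hmgcs1 was higher, 66.3, 69.2 and 65.8 CPM in cultures and 114, 94.4 and 119 CPM in tumors (log2 fold change 0.56, SE 0.14, adjusted p = 0.0176). Its call was lost in 5 of 13 alternatives: without culture library 2, culture library 3 or tumor 1, with no filter and with the replicate block. Lss (-0.54, SE 0.17, adjusted p = 0.0388) and Ebp (-0.52, SE 0.17, adjusted p = 0.0432) were lower. The branch median, 0.02, lay next to that of all genes. The Ebp call was lost without culture library 1 (-0.43, adjusted p = 0.0816), and the Lss call without tumor 3 (-0.44, adjusted p = 0.0526), and each of the 2 was lost in 7 of 13 alternatives. Among the regulators Srebf1 was lower, 168 ± 8.89 against 114 ± 26.7 CPM (log2 fold change -0.69, SE 0.19, adjusted p = 0.0239), a call lost without culture library 1 (adjusted p = 0.0527) and in 5 of 13 alternatives in all.

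Tumors labelled Cd276KO were compared with cultures of the same label in the same way, and here 75.7% of 14330 genes tested passed, 34.5% lower and 41.2% higher. All 8 fatty acid enzymes passed, 7 lower and 1 higher, with a median of -0.74 (all genes 0.08). Acaca was 106, 114 and 111 CPM in cultures and 38.3, 54.1 and 41.7 CPM in tumors (log2 fold change -1.43, SE 0.11, adjusted p = 4.17e-06). Scd1 was 347, 344 and 342 against 153, 163 and 169.6 CPM (log2 fold change -1.22, SE 0.05, adjusted p = 3.3e-07). Fasn (-1.08, SE 0.10, adjusted p = 1.11e-05) and Elovl6 (-0.98, SE 0.10, adjusted p = 3.19e-05) followed. These 4 genes had no overlap between tumors and cultures. Fads1 was the exception, 129.5 ± 1.76 CPM in cultures and 171 ± 19.4 CPM in tumors (log2 fold change 0.27, SE 0.07, adjusted p = 0.0076).

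Among the sterol enzymes 11 of 17 passed in this comparison, 7 higher and 4 lower, with a median of 0.21. Of all genes tested 75.7% passed, 41.2% higher and 34.5% lower. Hmgcs1 was 59.3, 55.8 and 55.3 CPM in cultures and 109, 139 and 137.5 CPM in tumors, more than any other enzyme of the branch by log2 fold change (1.04, SE 0.08, adjusted p = 5.1e-06). Fdft1 (0.86, SE 0.08, adjusted p = 1.64e-05) and Msmo1 (0.80, SE 0.09, adjusted p = 6.15e-05) were higher too, with ranges apart. Ebp was lower, 70.6, 73.1 and 71.6 against 50.3, 44.9 and 44.4 CPM (log2 fold change -0.76, SE 0.08, adjusted p = 2.88e-05), and Dhcr7 was lower, at -0.43 (SE 0.14, adjusted p = 0.0194). The other 6 calls ran from -0.27 to 0.64. Insig1 was 23.4 ± 1.13 CPM in cultures and 54.4 ± 11.9 CPM in tumors (log2 fold change 1.08, SE 0.13, adjusted p = 7.7e-05) and Srebf2 was higher by 0.43 (SE 0.10, adjusted p = 0.00301), while Srebf1 changed by -0.35 (SE 0.07, adjusted p = 0.00117).

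Stard4 was nearly silent in HM-1 cultures and present in the whole tumors. These also hold host RNA, and the part of host cells in the Stard4 counts was not tested. Control tumors held 709 counts and control cultures none, which puts the tumors at least 242-fold higher when the cultures are set to a floor of 3 counts in all. In tumors labelled Cd276KO the ratio to 1 count in culture was 439, and counting error alone allows 78.3 to 17368. Scaling mattered in these comparisons: with library totals alone the median of all genes moved from 0.05 to 0.20 in controls and from 0.08 to 0.21 in the label Cd276KO. On that scale 40.7% of all genes were called in controls and 74.6% in the label Cd276KO. The sterol branch was called 2 higher and none lower in controls, and 9 higher and 1 lower in the label Cd276KO. The fatty acid calls were then 4 lower in controls, and 1 higher and 5 lower in the label Cd276KO. No member called on the first scale changed direction.

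**Figure D5:**
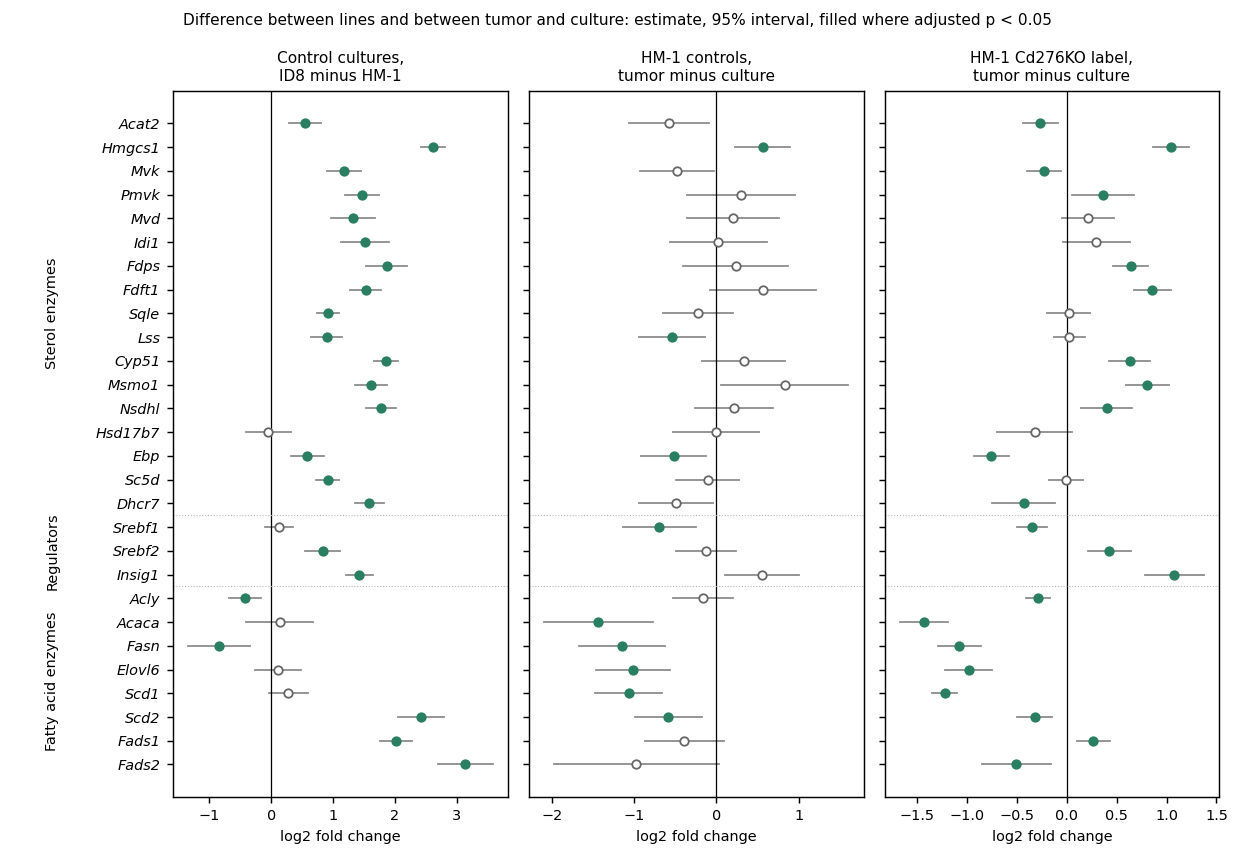
Log2 fold change of the members, apart from Stard4, between control tumors and control cultures, between tumors and cultures labelled Cd276KO, and between ID8 and HM-1 control cultures, with 95% confidence intervals and filled points where the adjusted p was under 0.05. Fatty acid enzymes lie left of 0 in both tumor panels, with Acaca at -1.44 and -1.43, apart from Fads1 at 0.27 in the label Cd276KO, and sterol enzymes lie right of 0 in the panel of lines, up to 2.62 for Hmgcs1, apart from Hsd17b7 at -0.05.

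Control cultures of ID8 held more RNA of the sterol enzymes than those of HM-1. Of 17 enzymes 16 passed the test and all 16 were higher in ID8, against 58.3% of 13732 genes tested, 28.8% higher and 29.6% lower, and the branch median was 1.46 (all genes -0.01). Hmgcs1 differed most, 430.1, 436 and 405 CPM in ID8 against 66.3, 69.2 and 65.8 CPM in HM-1 (log2 fold change 2.62, SE 0.08, adjusted p = 1.04e-07). Fdps (1.87, SE 0.14, adjusted p = 1.37e-05), the lanosterol demethylase Cyp51 (1.86, SE 0.08, adjusted p = 5.17e-07) and Nsdhl (1.77, SE 0.10, adjusted p = 2.52e-06) came next. Hsd17b7 was 22.8, 24.4 and 20.8 CPM in ID8 and 16.96, 24.7 and 26.6 CPM in HM-1, and did not pass (log2 fold change -0.05, adjusted p = 0.822). Without HM-1 control library 1 it was called lower in ID8, at -0.21 (adjusted p = 0.0282), and the other 16 calls were kept, in a fit that called 75.3% of all genes.

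Insig1 (1.43, SE 0.09, adjusted p = 4.39e-06) and Srebf2 (0.83, SE 0.12, adjusted p = 0.000508) were higher in ID8 as well, and Srebf1 did not pass (0.12, adjusted p = 0.313). Stard4 was 102, 108 and 100.2 CPM in ID8 and had no count in HM-1 controls, at least 2300-fold higher against the same floor. The fatty acid branch split. Fads2, the delta-6 desaturase, was 289.7, 296 and 322 CPM in ID8 and 23.3, 38.2 and 38.9 CPM in HM-1 (log2 fold change 3.14, SE 0.19, adjusted p = 3.34e-06). Scd2 (2.42, SE 0.16, adjusted p = 5.25e-06) and Fads1 (2.02, SE 0.11, adjusted p = 1.72e-06) were higher in ID8 too. Fasn, by contrast, was 257, 226 and 241 CPM in ID8 against 271.5, 514 and 483 CPM in HM-1 (log2 fold change -0.84, SE 0.21, adjusted p = 0.0102), and Acly was lower by 0.42 on the log2 scale (SE 0.11, adjusted p = 0.0121). Without HM-1 control library 1 Fasn was at -1.08, and Acaca (-0.12) and Scd1 (0.13) were called as well.

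Other genes of the pathway were read from 3 lists: 13 more genes of sterol synthesis and its control, 20 of fatty acid synthesis, and 7 of sterol efflux and storage. Of all genes, 11.6% were called higher and 16.1% lower in HM-1 cultures by label, and 29.4% and 31.3% in ID8. In HM-1 cultures by label 1 sterol gene was higher, the protease gene Mbtps1 (0.45), and 1 lower, the isoprenoid synthase Ggps1 (-0.56), of 11 tested. Of 16 fatty acid genes 4 were higher, led by the carboxylase Acacb (1.44), and 3 lower, led by the acetyl-CoA synthetase Acss2 (-1.22). Of 7 efflux and storage genes 1 was higher, the oxysterol receptor Nr1h3 (0.40), and 2 lower, the cholesterol acyltransferase Soat1 and the exporter Abcg1 (both -0.40). Without control library 1 (59.1% of all genes called) the 3 lists gave 1 higher and 6 lower, 5 and 7, and 2 and 3. The calls of Abcg1 and Nr1h3 were each lost in 7 of 13 alternatives, that of Mbtps1 in 5. In ID8 by label 4 of 12 sterol genes were higher, led by Acat3 (1.06) at under 1 CPM, and 5 lower, led by Mbtps2 (-0.77). Of 18 fatty acid genes 3 were higher and 8 lower, led by Acacb (-1.91) and Lpin1 (-1.68), and of 4 efflux genes the exporter Abca1 (-0.63) was lower.

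In tumors by label no other sterol gene of 12 and no other fatty acid gene of 18 passed the edgeR test (5.38% of all genes). At an unadjusted p under 0.05 there were 2 and 6, and the share of all genes under that p was not counted. DESeq2 called 1 and 6 (16.1%) and limma voom 1 and 6 (20.8%). Without control tumor 3 (10.7% of all genes called) edgeR called 1 lower, and 2 higher and 1 lower. Abca1 was 56.2, 58.6 and 50.6 CPM in control tumors and 22.3, 35.4 and 29.8 CPM in those labelled Cd276KO (log2 fold change -0.88, adjusted p = 0.0351), alone among 7 efflux genes, and lost this call in 6 of 13 alternatives, the replicate block and leaving out any tumor but control tumor 3. In control tumors against culture the counts were 0 higher and 4 lower of 12 sterol genes (Lbr -1.08, Scap -0.72), 3 higher and 4 lower of 18 fatty acid genes (Me1 -2.42, and Mlxipl at 0.937 CPM against 0.0452 CPM, or 3 counts, in culture), and 2 higher of 7 efflux genes (Abca1 1.70, Mylip 1.36). Of all genes, 25.3% were called higher and 16.6% lower in this comparison. Without culture library 1 (37.2% of all genes called) the counts were 0 and 5, 2 and 4, and 3 and 0. Without tumor 3 (46.5% called) they were 0 and 4, 4 and 4, and 2 and 0. In the label Cd276KO the counts were 3 and 7 of 12 (Acat3 2.03, Lbr -0.94), 7 and 7 of 17 (Scd4 2.39, Me1 -2.04), and 5 and 0 of 7 (Mylip 1.59, Abca1 1.09). There 41.2% of all genes were called higher and 34.5% lower. Between control lines the counts were 6 higher and 3 lower of 12 in ID8 (Lbr -0.86), 8 and 2 of 17 (Acacb 2.39, and Mlxipl at 6.13 CPM against the same 3 counts), and 2 and 4 of 7. Of all genes, 28.8% were called higher and 29.6% lower between the lines. Without HM-1 control library 1 (75.3% of all genes called) the counts were 7 and 4, 12 and 2, and 2 and 5. Abcg1 had no count in ID8 controls and was at least 1571-fold lower than in HM-1 against the floor, and Mylip had 1 count there, which puts HM-1 at 290 times ID8, where counting error alone allows 51.5 to 11500. The label effect differed between the lines for 3 higher and 3 lower of 12 sterol genes (Acat3 1.98, Mbtps2 -0.72), 4 and 6 of 18 fatty acid genes (Acacb -3.36, Me1 -1.54) and 1 and 0 of 7 efflux genes (Soat1 0.32). This contrast called 19.8% of all genes higher and 20.7% lower. Without HM-1 control library 1 (49% of all genes called) the counts were 5 and 4, 4 and 6, and 1 and 0.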

How the data were processed

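RNA was measured in 18 libraries. The deposited values are raw read counts per gene, whole numbers that the authors made with Trim Galore, STAR and HTSeq on GRCm38 (mm10), per the submitters' processing notes; versions, strand setting and counting mode are not given there. Symbols, positions and exon lengths came from GENCODE, which matched 53861 of 54752 identifiers with their version and 54723 without it. The 29 members and all lists were chosen with earlier results of these data known. Each comparison was fitted on its own 6 libraries (12 for an interaction) with edgeR 4.0.16 in R 4.3.3: filterByExpr, TMM scaling, robust quasi-likelihood test, Benjamini-Hochberg adjustment over all genes tested, threshold 0.05. The procedure was checked on simulated data. CPM values use library totals, so they differ slightly from fitted fold changes. Alternatives were DESeq2 1.42.0, its size factors in edgeR (RLE), library totals alone, no filter, a fit over all 18 libraries, limma 3.58.1 voom with quality weights, a replicate block, and each library left out. Full statistics were given, in each comparison and branch, for up to 4 called members with the largest absolute log2 fold change and up to 2 of the other direction, and values for at most 2 called genes of each further list. A few members that were not called are named with their values, chosen after these were seen.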

Additional observations from a re-analysis of the deposited data

Results flagged for a closer look

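The difference between libraries labelled Cd276KO and controls was not the same in ID8 and HM-1 cultures for 15 members, by an interaction test over the 12 culture libraries (edgeR, adjusted p under 0.05); values are the ID8 difference minus the HM-1 difference on the log2 scale. It was negative for Ebp (-1.07), Nsdhl (-1.01), Hmgcs1 (-0.9998), Sc5d (-0.53), Dhcr7 (-0.49), Mvk (-0.44) and Lss (-0.40) among the sterol enzymes, and for Acaca (-0.76), Scd1 (-0.70) and Elovl6 (-0.59) among the fatty acid enzymes. It was positive for Insig1 (0.98), Idi1 (0.75), Fdft1 (0.50), Sqle (0.23) and Cyp51 (0.22). The same test called 40.4% of all 14208 genes tested. Of the 15 members, 7 kept their call in all 19 alternatives. Line, strain and medium cannot be told apart in this difference, and Cd276 counts fell with the label in HM-1 but not in ID8 cultures.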

How the results depend on the processing

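No call of a member changed sign under an alternative. Of the called members, 4 of 10 kept their call in every alternative in HM-1 cultures by label, 10 of 24 in ID8 cultures, 0 of 1 in tumors, 5 of 10 in control tumors against culture, 15 of 23 in the label Cd276KO, and 22 of 24 between lines. The fit over all 18 libraries moved the sterol calls from 17 to 8 in ID8 by label, from 1 to 4 in tumors by label, from 3 to 8 in control tumors against culture, from 11 to 5 in the interaction of lines and from 0 to 1 in the interaction of tumors and cultures. It moved the fatty acid calls from 0 to 2 in HM-1 by label, from 4 to 2 in ID8, from 0 to 3 in tumors and from 0 to 1 in the interaction of tumors and cultures. The share of all genes called moved too. It went from 27.7% to 20.8% in HM-1 by label, from 60.7% to 25.8% in ID8 and from 5.38% to 24.2% in tumors. In control tumors against culture it went from 41.8% to 60.4%. The interaction of lines went from 40.4% to 24.8%, and that of tumors and cultures from 2.84% to 5.13%. With limma voom and quality weights the sterol calls were 15 in HM-1 by label, 3 in tumors by label, 9 in control tumors against culture and 10 in the interaction of tumors and cultures. The fatty acid calls were then 7, 3, 8 and 3 in the same order, and 7 in the interaction of lines. Of all genes voom called 60.8% in HM-1 by label, 20.8% in tumors by label, 65.1% in control tumors against culture, 19.7% in the interaction of tumors and cultures and 57.3% in that of lines. DESeq2 called 4 fatty acid enzymes in tumors by label (16.1% of all genes) and 5 sterol enzymes in control tumors against culture (46.1%). Library totals alone left 0 sterol calls in tumors by label (6% of all genes).

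Leaving out 1 library at a time gave 3 to 15 sterol and 0 to 7 fatty acid calls in HM-1 by label, 13 to 17 and 3 to 4 in ID8, 0 to 1 and 0 to 0 in tumors, 0 to 4 and 4 to 7 in control tumors against culture, 8 to 12 and 6 to 8 in the label Cd276KO, and 16 to 17 and 4 to 7 between lines. The interaction of lines gave 8 to 14 and 1 to 5, and that of tumors and cultures 0 to 0 and 0 to 1. Of all genes these fits called 13.5% to 59.1% in HM-1 by label, 54.4% to 59.7% in ID8 and 0% to 10.7% in tumors. The shares were 28.2% to 46.5% in control tumors against culture, 69.3% to 78.9% in the label Cd276KO and 49.1% to 75.3% between lines. They were 33.9% to 49% in the interaction of lines and 1.4% to 5.68% in that of tumors and cultures. In control tumors against culture the sterol count was 0 without culture library 2 or 3. In the interaction of lines the fatty acid count was 1 without HM-1 library 1 labelled Cd276KO or ID8 library 3 labelled Cd276KO.

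Replicate numbers are shared by the groups but were not shown to pair the samples: deviations of same-numbered libraries correlated at 0.03, 0.01 and 0.02 in HM-1 by label, 0.33, 0.08 and 0.24 in ID8 and -0.58, 0.19 and -0.04 in tumors. With the replicate number as a block the sterol calls were 5 in HM-1 by label, 17 in ID8, 0 in tumors and 0 in control tumors against culture, and the fatty acid calls were 0, 5, 0 and 4. Of all genes the block called 19.8%, 64.4%, 0% and 32.1% in the same order.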
